A study of Mus musculus with 7 samples.

Results

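Gene expression in cultured mouse haematopoietic stem cells was compared between cells given gemcitabine and cells given its solvent for 48 h. Genes were taken into the comparison where the deposited FPKM (fragments per kilobase of transcript, scaled to the mapped fragments of the library) reached at least 5 in at least 2 of the 5 libraries, which held for 8886 of the 52224 genes in the table. The genes described are those whose gemcitabine and solvent values did not overlap after scaling between libraries, 3356 of the 8886 (37.8%). Of these, 1665 (18.7% of the genes tested) were higher in both gemcitabine libraries than in all 3 solvent libraries, and 1691 (19%) were lower. The rule sets the members, and their count is a description and not a count of changed genes.

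The cells were wild-type and had been taken from C57BL/6J bone marrow, where the sort kept cells negative for lineage markers and CD48 and positive for Sca-1, c-Kit and CD150. All of them were then kept in culture. The DMSO group (3 libraries) had the solvent alone, and the Gem group (2 libraries) had gemcitabine at 0.5 µM. The sources used here do not give the age and sex of the mice, the number of cells or the culture medium. Nor do the labels say whether the libraries within DMSO or Gem stem from different animals or cultures, so each p-value reflects library-to-library spread alone, and that spread may be technical. RNA was amplified by a small-input protocol (Geo-seq) before a transposase-based library, and strand is not stated, so a gene and an antisense partner cannot be told apart.

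Gemcitabine is a cytidine analogue that enters cells through nucleoside transporters and is phosphorylated first by deoxycytidine kinase. Its diphosphate inhibits ribonucleotide reductase, and its triphosphate is built into DNA, where it stalls replication forks. Stalled forks are known to activate the ATR and CHK1 checkpoint, p53 and the Fanconi anaemia pathway, and stress kinases such as JNK act on the transcription factor AP-1.

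The results turn most on Jun and Nfkb2, which had large rises and whose products are subunits of AP-1 and NF-kB. Ctsd, a lysosomal protease gene from the lysosome and autophagy list, was not called and was picked after its values were seen. The 250 bases before the annotated starts of Jun, Nfkb2 and Ctsd are shown because each holds a short motif known for the factors that act on such genes. Sequences are RefSeq's in build GRCm38.p6, and capitals mark the motif. For Jun it is TGACATCA, a form of the element bound by Jun and ATF dimers, at position -45 from the start (chr4:95052223-95052472, minus strand). For Nfkb2 it is the AP-1 type TGANTCA, at -210 in one of 3 annotated promoters (chr19:46305445-46305694, plus strand). For Ctsd it is TCACGTGA, a core of the CLEAR element that TFEB binds, at -99 (chr7:142387828-142388077, minus strand).
Jun: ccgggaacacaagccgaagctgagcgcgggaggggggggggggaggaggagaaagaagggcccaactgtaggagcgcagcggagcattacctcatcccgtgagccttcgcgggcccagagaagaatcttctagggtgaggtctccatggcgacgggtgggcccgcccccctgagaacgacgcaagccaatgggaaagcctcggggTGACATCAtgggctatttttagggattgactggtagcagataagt
Nfkb2: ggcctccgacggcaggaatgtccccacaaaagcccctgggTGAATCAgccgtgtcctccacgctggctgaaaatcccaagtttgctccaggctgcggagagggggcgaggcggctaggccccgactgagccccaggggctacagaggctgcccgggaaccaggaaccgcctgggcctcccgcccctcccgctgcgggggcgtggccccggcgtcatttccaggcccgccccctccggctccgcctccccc
Ctsd: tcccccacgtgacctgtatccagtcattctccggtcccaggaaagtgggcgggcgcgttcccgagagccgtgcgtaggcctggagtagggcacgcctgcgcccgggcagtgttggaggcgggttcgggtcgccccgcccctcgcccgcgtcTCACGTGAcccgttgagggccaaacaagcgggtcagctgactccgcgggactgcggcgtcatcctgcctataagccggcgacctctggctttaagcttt

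Both strands of windows from 250 bases before to 50 bases after each start were searched for 12 motifs, namely TGANTCA, TGACATCA, TGACGTCA (cyclic AMP), GGANTTTCC, TCACGTGA, TTTNNCGC (E2F), CCGGAAGT (ETS), AAGATGGCG (YY1), CCAAT, and the serum response, heat shock and NRF-1 elements. TGACATCA was in 1.67% and TGANTCA in 4.96% of the 8848 windows of genes tested. None of the 12 motifs, which included AP-1, cyclic AMP, NF-kB and serum response types, was in the window of Fos in the exact form searched. Variant forms and bases farther than 250 before the start were not searched, so this does not show that the Fos promoter lacks such elements. The same window of Nfkb2 held the NF-kB motif GGANTTTCC 12 bases after the start, beyond the bases printed, and 1.47% of these windows held it. TCACGTGA was in 12.5% of the 56 windows of lysosome and autophagy genes and in 2.19% of those of all genes tested. In the 1646 windows of genes higher without overlap TGANTCA was in 4.92%, TGACATCA in 1.58%, GGANTTTCC in 1.09% and TCACGTGA in 2.55%. These shares lay near those of all genes tested. A match describes these letters only and does not show that a factor was bound.

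The libraries of the groups differed over the whole table. The FPKM summed to 818775 to 832979 in DMSO and to 729258 and 703016 in Gem, and 21251 to 23047 genes were above 0 in DMSO against 29158 and 27887 in Gem. Of 1998 olfactory and vomeronasal receptor genes, which serve no known role in blood cells, 384 to 408 were above 0 in DMSO and 1083 and 1002 in Gem. The median gene stood at -0.31 (log2, Gem minus DMSO) as deposited and at 0.0052 after scaling, so all values below are scaled FPKM unless named otherwise. As deposited, 63 genes were called higher and 3681 lower. DMSO 3 stood apart from the other DMSO libraries, with 20.5% of the FPKM in its 10 most abundant genes against 16.3% and 17.1%, and without it 2488 genes were higher without overlap (28.4% of 8754) and 2439 lower (27.9%). The depth of the libraries is unknown, and fewer cells of a type and less RNA per cell cannot be told apart in bulk RNA.

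The sort label was set against marker genes. Kit (c-Kit) was at 36.4 to 44.8 in DMSO and 40.1 and 34.1 in Gem, and Ly6a (Sca-1) at 31.1 to 44.9 and 29.4 and 25.0. Slamf1, the gene of CD150, was at 0.381 to 1.12 in DMSO and 1.18 and 0.719 in Gem, while Cd48, whose protein the sorted cells lacked, was at 183 to 201 and 140 and 153. Of genes known for stem cell identity, Hlf reached at most 3.30 in any library and Mecom and Fgd5 less. Procr, another of these genes, was at 9.14 to 15.8 in DMSO and 10.7 and 11.1 in Gem. Of 31 identity genes listed 17 were tested, and these summed to 470 to 505 in DMSO and 518 in each Gem library. With the sort markers 20 were tested, 6 higher and 6 lower without overlap (18.7% and 19% of all genes). Mpo, the myeloperoxidase of granulocyte precursors, was at 2416 to 3460 in DMSO. After culture both groups thus carried RNA of Kit and Sca-1 with little of CD150 and much myeloid RNA.

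Among single genes, 63 of the 8886 passed limma's test at a Benjamini-Hochberg adjusted p below 0.05 (0.709%), 35 higher (0.394%) and 28 lower (0.315%) in Gem, and all 63 were without overlap. Of the 35 higher genes 21 were named genes and 14 predicted genes, pseudogenes or small RNA genes. Of the 28 lower genes 23 were named. The minimum, set on deposited FPKM, was met only through Gem in 28 genes (12 of them called), and these had to be higher. It was met only through DMSO in 401 genes (2 called), which the minimum favoured as lower in Gem. Scaling lowered DMSO and raised Gem values, so on the tested scale these 401 did not have to differ. Among the 3356 genes the gap between the nearest libraries of the groups was above 0.5 on the log2 scale in 69 higher and 49 lower genes. The number of calls rested on single libraries: it was 9 without DMSO 1, 39 without DMSO 2, 362 without DMSO 3, 6 without Gem 1 and 2 without Gem 2. At an unadjusted p below 0.05 there were 1642 genes.

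**Figure D1:**
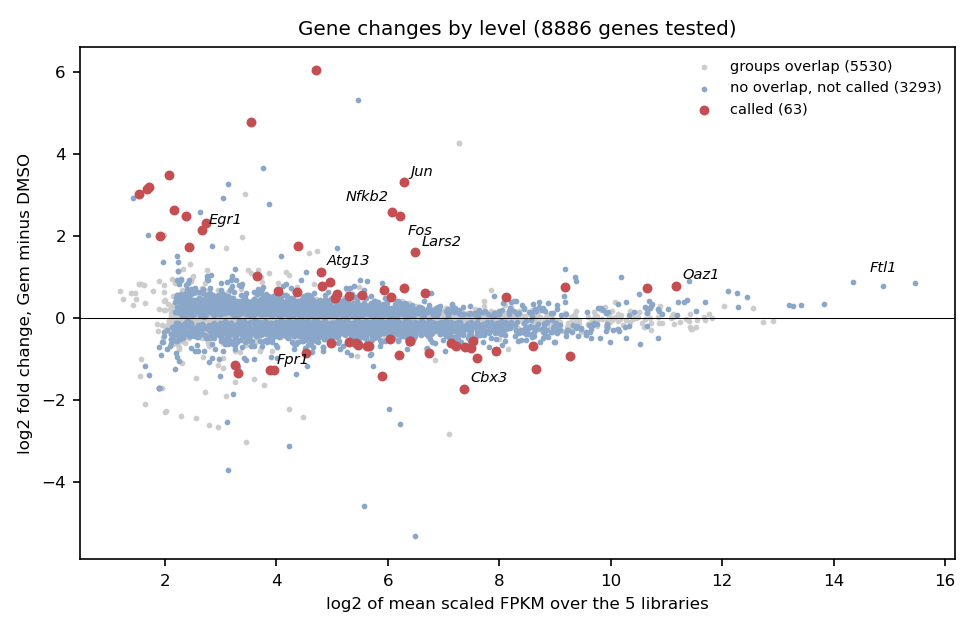
Each point is a gene, with the log2 of its mean scaled FPKM over the 5 libraries on the x axis and its log2 fold change (Gem minus DMSO) on the y axis; red points are the 63 genes called, blue points the other genes without overlap, and grey points genes whose groups overlap. Jun, Nfkb2, Fos and Lars2 stand apart above the bulk at middle levels, Cbx3 below it, and Ftl1 at the far right.

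Jun, Fos and Egr1, transcription factor genes of the early stress response, were among the largest rises of named genes, with Nfkb2 between Jun and Fos. Jun, a subunit of AP-1, was at 14.3, 14.7 and 20.2 in DMSO 1 to 3 and at 161 and 179 in Gem 1 and 2. Both Gem libraries were far above all DMSO libraries, a 10.4-fold difference of the means and 3.31 ± 0.15 on the log2 scale (SE, limma adjusted p = 5.56e-04). Its partner Fos was at 25.2, 23.6 and 27.4 in DMSO and at 137 and 157 in Gem. The groups did not overlap, and Fos rose by 2.49 ± 0.10 on the log2 scale (SE, limma adjusted p = 3.01e-04). Egr1, a zinc finger factor induced by growth and stress signals, was at 1.73, 2.12 and 2.36 in DMSO and at 10.3 and 15.2 in Gem. It rose by 2.15 ± 0.23 on the log2 scale (SE, limma adjusted p = 0.0293) from a level near the lower end of the table. Egr1 met the minimum only through the Gem libraries, so a difference was built into its test. Jun and Fos also passed in each fit that left out 1 library.

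Of 37 early response genes listed 20 were tested. Of these 5 were higher and 6 lower without overlap (18.7% and 19% of all genes), with 3 called higher and 0 called lower. The median log2 fold change was -0.0086 against 0.0052 for all genes tested. Apart from Jun, Fos and Egr1, the higher members were the zinc finger genes Klf10 (11.1 to 13.6 against 13.8 and 15.0) and Zfp36l2 (11.01 to 12.28 against 12.32 and 14.16), at 0.23 and 0.17 on the log2 scale (limma adjusted p = 0.339 and 0.44). Junb, another AP-1 subunit, was at 41.3, 41.9 and 45.1 in DMSO and at 33.9 and 34.4 in Gem, lower in both (log2 fold change -0.32, limma adjusted p = 0.115). Batf, an AP-1 factor of immune cells, was at 31.7 to 36.9 in DMSO and at 24.6 and 23.2 in Gem, again lower without overlap (-0.52, limma adjusted p = 0.0718). Dusp1 and Dusp5, phosphatases that switch off MAP kinases, were lower without overlap at -0.44 and -0.63 and were not called. The remaining 9 of the 20 overlapped between the groups. Klf10, Zfp36l2, Junb, Batf, Dusp1 and Dusp5 were picked after their values were seen.

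Nfkb2, which encodes the p100 precursor of the NF-kB subunit p52, was at 17.2, 19.0 and 29.8 in DMSO and at 129 and 140 in Gem. Both Gem libraries lay far above the highest DMSO library, DMSO 3, and it rose by 2.60 ± 0.22 on the log2 scale (SE, limma adjusted p = 0.0127). The other tested members of NF-kB did not follow it in size. Of 24 NF-kB genes tested 4 were higher and 6 lower without overlap (18.7% and 19% of all genes), with a median of -0.032. Nfkb2 was the single call. By role, 3 of 5 subunit genes were higher and 0 lower, and 0 of 8 inhibitor genes were higher and 4 lower. No test compared the roles. Nfkbia, which encodes the inhibitor IkB alpha and is itself a target of NF-kB, was at 153 to 194 in DMSO and at 127 and 134 in Gem (-0.37, limma adjusted p = 0.171). Ikbkg, the scaffold of the IkB kinase, was at 81.0 to 91.7 and at 102 and 96.6 (0.23, limma adjusted p = 0.224). Jun and Nfkb2 each overlap an annotated antisense gene, and Nfkb2 also overlaps Psd.

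In the annotation of GRCm38 (mm10) Jun is on chromosome 4 (95049034 to 95052222, minus strand) and Fos on chromosome 12 (85473890 to 85477273, plus strand). Nfkb2 is on chromosome 19 (46304320 to 46312385, plus strand). FPKM values cover whole genes, so exons and untranslated regions are not told apart.

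**Figure D2:**
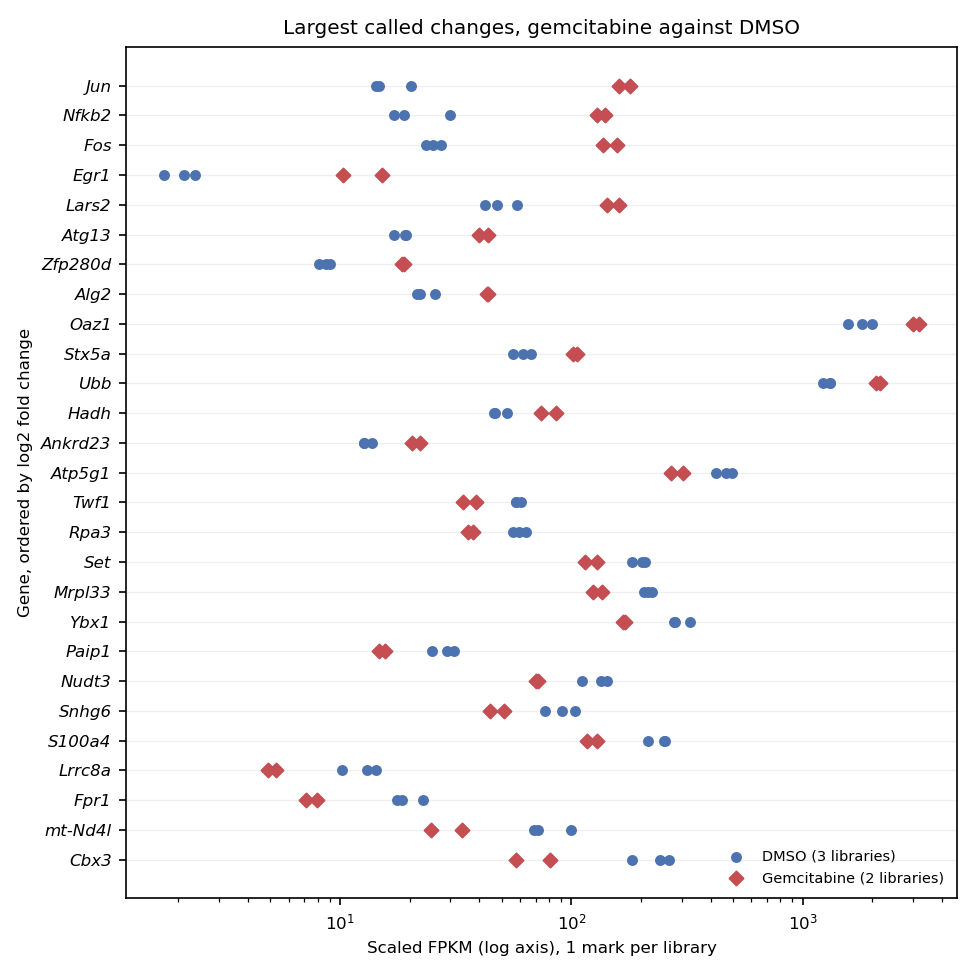
Scaled FPKM (log axis) in each of the 3 DMSO libraries (circles) and 2 gemcitabine libraries (diamonds) for 13 of the 14 largest rises and the 14 largest falls among called named genes, ordered by log2 fold change. For every gene drawn the groups are apart, from Jun at the top (14.3 to 20.2 against 161 and 179) to Cbx3 at the bottom (183 to 264 against 57.4 and 80.8).

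Ubb and Oaz1, genes of the ubiquitin and polyamine systems, were among the rises at high level. Ubb, a polyubiquitin gene, was at 1313, 1228 and 1308 in DMSO and at 2165 and 2076 in Gem. The groups did not overlap, and Ubb rose by 0.73 ± 0.08 on the log2 scale (SE, limma adjusted p = 0.0301). Oaz1, the antizyme that directs ornithine decarboxylase to the proteasome, was at 1809, 1580 and 2000 in DMSO and at 3001 and 3195 in Gem, and it rose by 0.79 ± 0.12 on the log2 scale (SE, limma adjusted p = 0.0484). Its processed pseudogene Oaz1-ps, whose reads may come from Oaz1, moved with it by 0.78 (limma adjusted p = 0.0385).

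Inside Oaz1 lies the microRNA gene Mir1982, which had the largest log2 fold change of all genes called. It was listed at 0 in the 3 DMSO libraries and was at 60.9 and 69.6 in Gem (54.18 and 59.11 as deposited). Its 74 bases (chromosome 10, 80828797 to 80828870, plus strand) fill exactly the gap between an Oaz1 exon that ends 1 base before it and one that starts 1 base after it, so the hairpin is a whole intron of Oaz1, and 1 annotated exon of Oaz1 spans it. The RefSeq hairpin (GRCm38.p6) is printed with the bases at its ends that stand at the splice sites in capitals.
Mir1982: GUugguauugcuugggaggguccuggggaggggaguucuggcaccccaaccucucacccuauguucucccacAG
The value of Mir1982 thus counts reads over an intron of Oaz1, and whether they come from the microRNA, from unspliced Oaz1 RNA or from DNA cannot be told apart here. Reads of RNA this short are estimated poorly by FPKM. The remaining predicted and small RNA genes among the rises include Gm25877 and Gm25711, listed at 0 in DMSO and at 7.01 to 9.14 in Gem. They and Mir1982 met the minimum only through Gem, so a difference was built into their tests. In Gem 1 and Gem 2 Gm25877 has the same values as Mir8095 (7.01 and 8.91), which was called lower. In DMSO these genes differed, and how reads were assigned to them is not given.

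Other single rises were of genes of the mitochondrion, the secretory pathway and autophagy. Lars2, the mitochondrial leucyl-tRNA synthetase, was at 42.4, 47.8 and 58.0 in DMSO and at 142 and 161 in Gem (1.61 ± 0.14, SE, limma adjusted p = 0.0131). The mitochondrial ribosomal RNA mt-Rnr2 was at 12154 to 13972 and at 17280 and 16162 (0.36, limma adjusted p = 0.196). By quantile normalization its group means did not differ. Gm15564, a noncoding gene that like Lars2 is known to collect reads of ribosomal RNA-like sequence, was at 1.07 to 2.74 in DMSO and at 11.05 and 16.5 in Gem and met the minimum only through Gem, and the part of such reads in Lars2 was not tested. Hadh, an enzyme of fatty acid oxidation, was at 46.1 to 52.9 in DMSO and at 73.6 and 85.5 in Gem (0.70, limma adjusted p = 0.0466). Stx5a, a syntaxin of the Golgi, was at 56.0 to 66.7 and at 106 and 101 (0.75, limma adjusted p = 0.0382), and Alg2, which adds mannose to the precursor of N-glycans, at 21.4 to 25.6 and at 43.1 and 43.7 (0.89, limma adjusted p = 0.0301). Zfp280d, a zinc finger gene, and Ankrd23, an ankyrin repeat gene, rose by 1.04 and 0.66 on the log2 scale (limma adjusted p = 0.0228 and 0.0410).

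Autophagy and lysosome genes were higher in a larger share than all genes tested. Of 62 tested, 29 were higher in both Gem libraries than in every DMSO library and 2 were lower (18.7% and 19% of all genes tested), with a median log2 fold change of 0.11 against 0.0052. Of these 1, Atg13, was called. Corrected for transcript length and level the counts were again 29 and 2 (17.6% and 16.6% of all genes), and without DMSO 3 they were 40 and 3 (28.4% and 27.9%). As deposited 4 members were higher without overlap, of 153 such genes in all.

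Atg13, a subunit of the ULK1 kinase complex that starts autophagy, was at 19.1, 17.1 and 19.3 in DMSO and at 40.02 and 43.6 in Gem. Both Gem libraries were above every DMSO library, and Atg13 rose by 1.14 ± 0.09 on the log2 scale (SE, limma adjusted p = 0.0127). Atg101, its partner in the same complex, was at 36.3, 30.2 and 23.9 and at 51.6 and 49.1 (0.74 ± 0.16, SE, limma adjusted p = 0.0974). The groups did not overlap, but Atg101 was not called. Rb1cc1, the scaffold FIP200 of that complex, was higher without overlap at 0.36, and 3 of the 6 autophagy initiation genes tested overlapped between the groups. Ulk1 itself did not reach the minimum, at 2.09 to 5.16 FPKM as deposited.

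Lysosomal hydrolase genes were higher by smaller amounts. Lipa, the acid lipase that frees cholesterol from its esters, was at 440, 407 and 652 in DMSO and at 829 and 1011 in Gem (0.90 ± 0.21, SE, limma adjusted p = 0.103). Psap, the precursor of the saposins, was at 3072, 3295 and 4417 and at 5603 and 5572 (0.65, limma adjusted p = 0.122), and Ctsd at 2130, 2268 and 2523 and at 2836 and 3422 (0.44, limma adjusted p = 0.145). In all 3, DMSO 3 was the DMSO library nearest to Gem. Ctsb, Ctsa, Grn and Hexa were likewise higher without overlap at 0.20 to 0.36. Of the 38 lysosome genes of the list 20 were higher and 1 lower without overlap, and 17 overlapped. The genes of this list other than Atg13, Atg101 and Lipa were picked after their values were seen.

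Ferritin and lysozyme, the most abundant RNAs of these cells, were also higher in Gem without being called. Ftl1 (ferritin light chain) was at 32526, 29498 and 40494 in DMSO and at 58149 and 65014 in Gem, and Fth1 (heavy chain) at 14427, 13099 and 19512 and at 25865 and 31035. Their log2 fold changes were 0.86 ± 0.18 and 0.87 ± 0.20 (SE, limma adjusted p = 0.0912 and 0.102). Of 16 genes of iron handling tested 6 were higher and 1 lower without overlap (18.7% and 19% of all genes), with a median of 0.15. The higher count was 13 without DMSO 3 (28.4% of all genes) and 10 without Gem 1 (2778 of all 8803 genes tested). It was 2 with the length and level correction (17.6% of all genes) and 2 by quantile normalization. Lyz2, the lysozyme of granulocytes and macrophages, was at 22596, 19664 and 28569 and at 38637 and 41886 (0.79 ± 0.18, SE, limma adjusted p = 0.109). By quantile normalization the group means of Ftl1, Fth1 and Lyz2 did not differ.

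Myeloid marker lists were set beside these values. The 21 neutrophil and granule genes in the table, all above 0 in all 5 libraries, summed to 36827 to 40697 in DMSO and 57524 to 57879 in Gem. Without Lyz2 the sums were 18101, 17163 and 11659 in DMSO and 18887 and 15992 in Gem, which overlap. Of 19 neutrophil genes tested 3 were higher without overlap (Lyz2, Mpo and Ltf, at 0.79, 0.40 and 0.78) and 0 lower. The shares over all genes were 18.7% and 19%, and 0 of the 19 were called. Without DMSO 3 there were 3 higher and 7 lower (28.4% and 27.9% of all genes), with a median of -0.06. The 30 monocyte, macrophage and dendritic markers summed to 6424 to 7025 in DMSO and 6142 to 6505 in Gem. The part of a shift in cell types in the lysosome and ferritin values was not tested.

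Interferon genes were found in both directions. Of 29 tested 11 were higher and 6 lower without overlap (18.7% and 19% of all genes), with a median of 0.17, and 1 was called. Irf1, a transcription factor induced by interferon gamma, was at 40.2, 37.2 and 38.8 in DMSO and at 59.5 and 55.8 in Gem. It rose by 0.56 ± 0.08 on the log2 scale (SE, limma adjusted p = 0.0398). Of the 10 sensors and factors 6 were higher and 1 lower. Of the 19 effector genes 5 were higher and 5 lower. Bst2 (tetherin) was at 94.2 to 103 in DMSO and at 79.8 and 74.2 in Gem (-0.34, limma adjusted p = 0.108), and Ifitm1, Ifitm2 and Ifitm3, which block viral entry and were picked after their values were seen, were lower without overlap at -0.48, -0.21 and -0.21. After the length and level correction 10 members were higher and 1 lower (4 and 1 of the effector genes), and no test compared the roles. Without DMSO 3 there were 11 and 8 (28.4% and 27.9% of all genes), and as deposited 1 was higher.

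**Figure D3:**
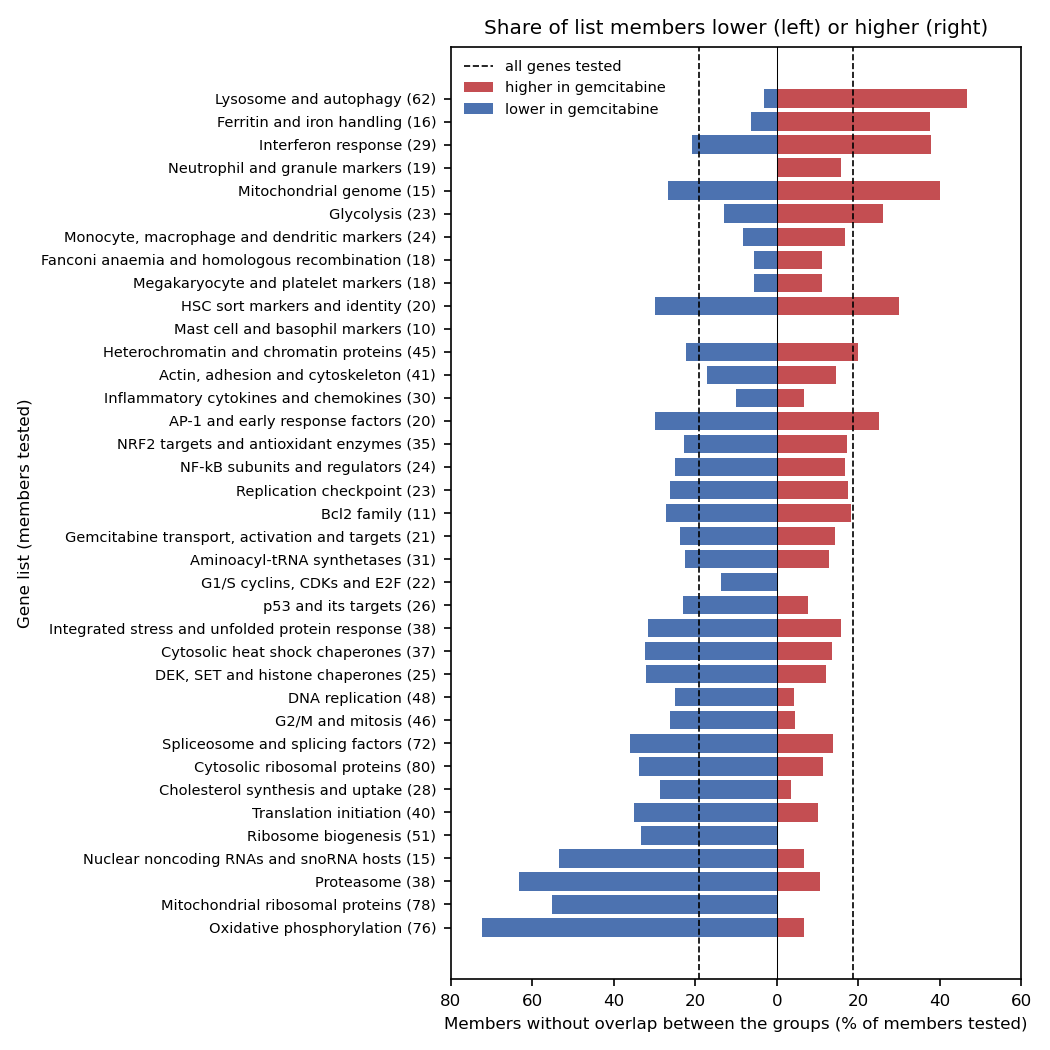
Bars give the percent of tested members of each list that were higher (red, to the right) or lower (blue, to the left) in gemcitabine without overlap between the groups, for lists with at least 10 members tested; dashed lines mark the same percent over all 8886 genes (18.7% and 19%). Lysosome and autophagy genes reach farthest to the right (29 of 62), and oxidative phosphorylation (55 of 76), proteasome (24 of 38) and mitochondrial ribosomal genes (43 of 78) farthest to the left.

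The largest fall among the named genes called was that of Cbx3, which encodes the heterochromatin protein HP1 gamma. It was at 242, 264 and 183 in DMSO and at 57.4 and 80.8 in Gem. It fell by 1.72 ± 0.20 on the log2 scale (SE, limma adjusted p = 0.0301), with no overlap. Set, a histone chaperone and inhibitor of the phosphatase PP2A, was at 203, 208 and 183 and at 129 and 114 (-0.70 ± 0.09, SE, limma adjusted p = 0.0382). Both have close copies in the genome, and how reads were shared among copies is not given. Ybx1, an RNA- and DNA-binding cold shock protein, was at 325, 278 and 281 and at 171 and 167 (-0.79, limma adjusted p = 0.0301), and Paip1, which binds the poly(A)-binding protein in translation, at 29.0, 31.0 and 24.9 and at 15.6 and 14.8 (-0.85, limma adjusted p = 0.0382). In each of these genes the highest Gem library lay below the lowest DMSO library.

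Fpr1, the receptor for formylated peptides on myeloid cells, was at 22.8, 17.6 and 18.4 in DMSO and at 7.98 and 7.13 in Gem. It fell by 1.26 ± 0.13 on the log2 scale (SE, limma adjusted p = 0.0293), in a direction opposite to that of Lyz2. S100a4, a calcium-binding protein of motile cells, was at 253, 255 and 214 and at 129 and 116 (-0.96 ± 0.10, SE, limma adjusted p = 0.0293). Lrrc8a, a subunit of the volume-regulated anion channel, was at 10.2 to 14.3 and at 5.28 and 4.87. As deposited it met the minimum only through DMSO, which favoured a difference in its test. Nudt3, a hydrolase of inositol pyrophosphates, fell by 0.85 on the log2 scale (limma adjusted p = 0.0382). Twf1, which caps actin filaments, fell by 0.68 (limma adjusted p = 0.0382). Rpa3, the smallest subunit of the protein RPA that coats single-stranded DNA at stalled forks, was at 59.6, 63.5 and 56.1 and at 37.5 and 35.8 (-0.69 ± 0.08, SE, limma adjusted p = 0.0354). Of the 14 clamp and single-strand binding genes tested, Rpa3 among them, 1 was lower and 2 higher without overlap, and 11 overlapped. The mitochondrial transcript mt-Nd4l was at 69.1 to 99.3 and at 24.8 and 33.8 (-1.42, limma adjusted p = 0.0382), and it lies in 1 transcript with mt-Nd4, which was at 1441 to 1616 and at 1762 and 1618.

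Nuclear-encoded genes of oxidative phosphorylation, the respiratory chain and ATP synthase, were lower in Gem in most of the members tested. Of 76 tested 55 were lower and 5 higher without overlap (19% and 18.7% of all genes), and the median was -0.26. Atp5g1, the c subunit of ATP synthase, was the single call, at 497, 465 and 422 in DMSO and at 305 and 270 in Gem (-0.68 ± 0.10, SE, limma adjusted p = 0.0466). Uqcrb of complex III was at 344 to 352 and at 268 and 244 (-0.44, limma adjusted p = 0.0645), and Ndufa12 of complex I at 146 to 155 and at 115 and 113 (-0.40, limma adjusted p = 0.0663). By complex the lower members were 27 of 37 for complex I, 3 of 4 for complex II, 8 of 10 for complex III, 9 of 10 for complex IV and 8 of 15 for complex V. Without DMSO 3 there were 60 lower and 6 higher, and after the length and level correction 39 and 6 (16.6% and 17.6% of all genes), with a median of -0.12.

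The 15 genes of the mitochondrial genome did not share this direction. Of these 6 were higher and 4 lower without overlap (18.7% and 19% of all genes), with a median of 0.12. By quantile normalization 1 was higher. The mt-Co3 transcript was at 2262, 1848 and 1907 in DMSO and at 4574 and 3055 in Gem (0.90 ± 0.18, SE, limma adjusted p = 0.0871), higher in both Gem libraries but not called. The tests of these 15 genes do not compare them with the nuclear genes, and no test of that difference was made.

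Mitochondrial ribosomal protein genes, whose products translate the mitochondrial messages, were lower in 43 of 78 tested and higher in 0 without overlap, with a median of -0.21. Over all genes tested 19% were lower and 18.7% higher. Mrpl33 was at 206, 223 and 214 in DMSO and at 135 and 124 in Gem (-0.72 ± 0.08, SE, limma adjusted p = 0.0293) and was the single call. Mrps28 and Mrpl40 were lower without overlap at -0.57 and -0.44 (limma adjusted p = 0.0718 and 0.0663). With the length and level correction 25 were lower and 5 higher (16.6% and 17.6% of all genes). Of the 80 cytosolic ribosomal protein genes 27 were lower and 9 higher, 0 were called, and Rpl29 (490 to 536 against 389 and 372) was among the lower. Without DMSO 3 the lower count was 55 (27.9% of all genes).

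The proteasome, which degrades ubiquitin-tagged proteins, was lower in Gem in most of its genes with the main scaling, but not with every alternative. Of 38 tested 24 were lower and 4 higher without overlap (19% and 18.7% of all genes), with a median of -0.17. In the core particle 13 of 17 were lower and 1 higher, and in the cap and activators 11 of 21 were lower and 3 higher, and no test compared these parts. Psmb7, which holds the trypsin-like site, was at 97.0, 96.9 and 96.3 in DMSO and at 68.2 and 63.0 in Gem (-0.55 ± 0.07, SE, limma adjusted p = 0.0382) and was the single call. Psmb5, the site that bortezomib blocks, was at 380 to 413 and at 312 and 295 (-0.38, limma adjusted p = 0.0859), and Psme3, an activator of nuclear proteasomes, at 31.5 to 38.4 and at 19.3 and 21.5 (-0.70, limma adjusted p = 0.0599). With the length and level correction 15 were lower and 6 higher (16.6% and 17.6% of all genes). Without DMSO 3 there were 27 and 5 (27.9% and 28.4% of all genes). By quantile normalization 12 of the 38 were lower. The ETS motif CCGGAAGT was in 25.7% of the 35 windows of proteasome genes and in 9.69% of all windows of genes tested. It was also in 25.9% of the windows of ribosome biogenesis genes. For mitochondrial and cytosolic ribosomal protein genes the shares were 16% and 15.9%. For oxidative phosphorylation, lysosome and autophagy, and interferon genes they were 7.25%, 3.57% and 3.12%.

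Genes of ribosome assembly and splicing were lower in part. Over all genes tested 19% were lower and 18.7% higher without overlap. Of 51 ribosome biogenesis genes 17 were lower and 0 higher, with 0 called and a median of -0.11. After the length and level correction 15 were lower and 1 higher (16.6% and 17.6% of all genes). Without Gem 1, 28 were lower, and so were 2654 of all 8803 genes tested. Gar1, of the particles that guide pseudouridine formation, was at 27.9 to 31.6 in DMSO and at 20.8 and 19.2 in Gem (-0.57, limma adjusted p = 0.0599). Of 12 host genes of small nucleolar RNAs 8 were lower and 0 higher. Snhg6 was at 91.3, 104 and 77.3 and at 51.2 and 44.6 (-0.90 ± 0.13, SE, limma adjusted p = 0.0481), and Snhg8 at 68.8 to 74.7 and at 51.7 and 44.0 (-0.57, limma adjusted p = 0.0599). Of 72 splicing genes 26 were lower and 10 higher, and 25 and 6 after the length and level correction. Hnrnpab, an RNA-binding protein, was called at 48.5 to 53.8 and 32.3 and 33.0 (-0.61, limma adjusted p = 0.0382).

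Exonic length moved with direction over all genes. Among the 8698 genes with a length in GENCODE M21, the genes lower without overlap had a median length of 2764 bases, the genes higher 5663 and the others 4210. Of genes of 1 to 2 kilobases 40% were lower and 7.29% higher, and of genes of 8 kilobases or more 7.4% were lower and 32% higher. The median length was 1697 bases for oxidative phosphorylation, 2394 for mitochondrial ribosomal, 2814 for proteasome and 4345 for lysosome and autophagy genes, against 4136 for all genes tested. Of the 28 genes called lower 12 and of the 35 called higher 27 were called after the length and level correction.

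**Figure D4:**
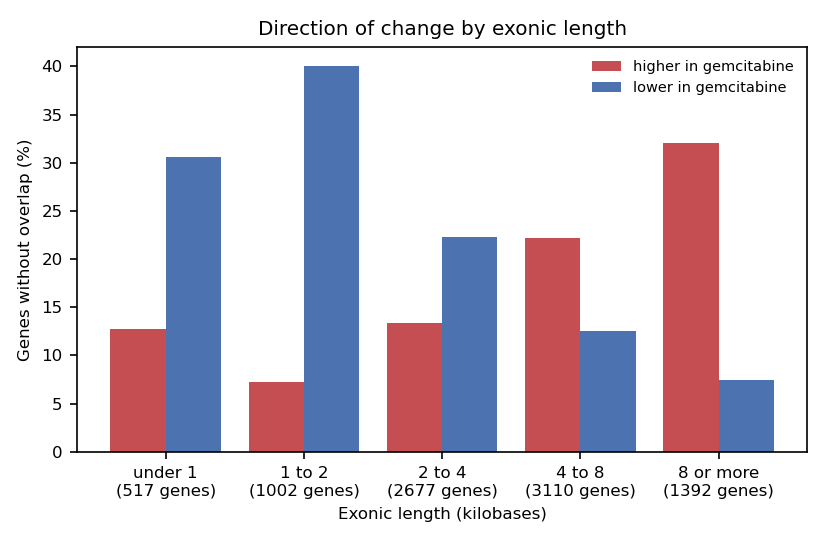
Bars give the percent of genes in each range of exonic length (x axis, kilobases, with the number of genes) that were higher (red) or lower (blue) in gemcitabine without overlap. The lower share is above the higher share up to 4 kilobases and below it from 4 kilobases on.

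**Figure D5:**
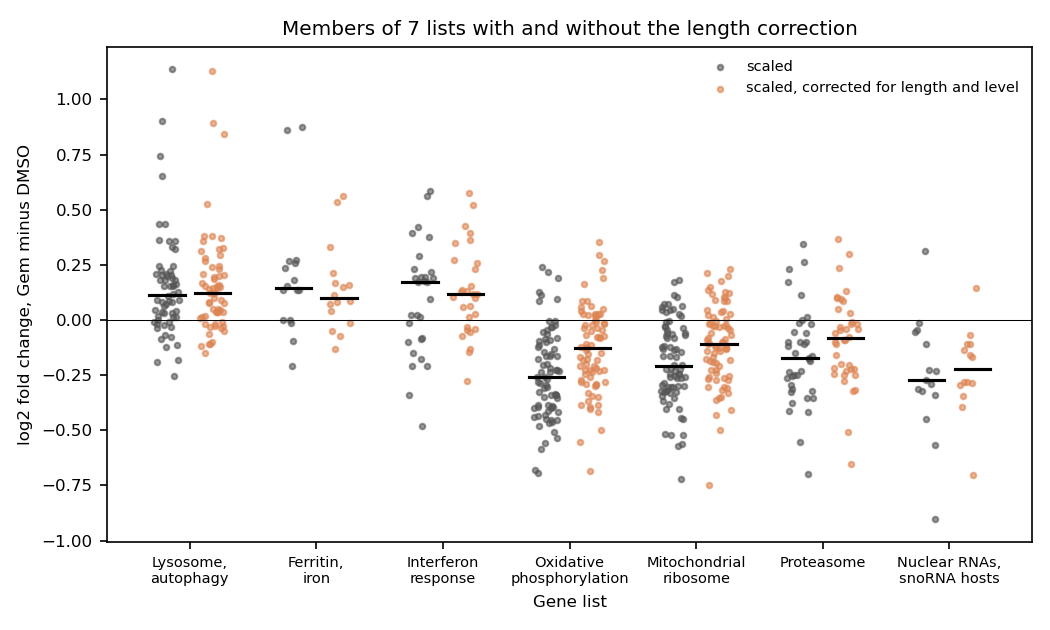
Each point is the log2 fold change of 1 tested member of a list, scaled (grey) and after the length and level correction (orange), and black bars are medians. The medians of oxidative phosphorylation, mitochondrial ribosomal and proteasome genes move from -0.26, -0.21 and -0.17 to -0.12, -0.11 and -0.082, and that of lysosome and autophagy genes from 0.11 to 0.12.

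Genes that handle gemcitabine or are its targets were not called. Of 27 listed 21 were tested, 3 higher and 5 lower without overlap (18.7% and 19% of all genes), with a median of -0.076. Without DMSO 3 there were 3 and 9 (28.4% and 27.9% of all genes). Slc29a1, the transporter ENT1, was at 68.4, 68.5 and 74.6 in DMSO and at 65.8 and 67.8 in Gem, and Dck, deoxycytidine kinase, at 15.4, 15.5 and 18.05 and at 14.1 and 15.0. Both were lower without overlap by small amounts (-0.08 and -0.15, limma adjusted p = 0.632 and 0.481). Cda, the deaminase that inactivates the drug, was at 0 to 0.4 FPKM in every library as deposited and was not tested. Samhd1, which cleaves the active triphosphate, was at 37.0 to 45.3 and at 49.6 and 45.9 (0.20, limma adjusted p = 0.366). Nme1, a diphosphate kinase that makes the triphosphate and lies next to Nme2, was at 122 to 141 and at 94.6 and 80.2 (-0.61, limma adjusted p = 0.0663). Abcc5, an exporter of nucleotide analogues, was at 50.4 to 64.4 and at 67.1 and 81.6 (0.42, limma adjusted p = 0.185). The target genes Rrm1 and Rrm2 of ribonucleotide reductase and Tyms, thymidylate synthase, overlapped between the groups at -0.15, 0.01 and -0.28 (limma adjusted p = 0.485, 0.980 and 0.534).

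Among replication and repair genes 1 was called. Of 48 DNA replication genes 12 were lower and 2 higher without overlap (19% and 18.7% of all genes). The median was -0.087, and Rpa3 was the single call. The lower count was 20 without DMSO 2, where 2123 of all 8660 genes tested were lower. The count was 21 without Gem 1 or without Gem 2, where 2654 of all 8803 and 2571 of all 8814 genes were lower. Without DMSO 3 there were 14 lower and 11 higher (27.9% and 28.4% of all genes). Of 9 licensing genes 5 were lower, among them Gmnn (geminin), at 58.4 to 65.1 in DMSO and at 45.5 and 45.9 in Gem (-0.43, limma adjusted p = 0.0718). Of 23 checkpoint genes 4 were higher and 6 lower, beside 18.7% and 19% of all genes. Without DMSO 3 there were 8 and 6, beside 28.4% and 27.9%. Chek2 of this list, the checkpoint kinase CHK2, was at 19.3 to 24.1 and at 31.5 and 29.0 (0.45, limma adjusted p = 0.12). In the Fanconi anaemia and homologous recombination list, 18 members were tested, with 2 higher (Fancc and Brca2, at 0.41 and 0.34) and 1 lower (Usp1, the deubiquitinase of FANCD2, at -0.44), and 5 and 1 without DMSO 3. Rpa3 was the single gene of these lists that was called.

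Genes of p53 regulation and targets of p53 were not called in either direction. Of 26 tested 2 were higher and 6 lower without overlap (18.7% and 19% of all genes), with a median of 0.0038. Of the 6 lower, 2 were among the 3 genes of p53 regulation tested. Without DMSO 3 there were 4 and 8 (28.4% and 27.9% of all genes). Cdkn1a, which encodes the cell cycle inhibitor p21, was at 86.0, 98.8 and 87.7 in DMSO and at 68.8 and 81.9 in Gem. Both Gem libraries were below all DMSO libraries (-0.27, limma adjusted p = 0.246). Gadd45a, a growth arrest gene, was at 20.4 to 27.2 and at 14.9 and 14.3 (-0.63, limma adjusted p = 0.0871), and Ccng1 (cyclin G1) at 39.0 to 44.1 and at 49.7 and 50.1 (0.27, limma adjusted p = 0.169). Mdm2, the ubiquitin ligase of p53, overlapped between the groups (0.02, limma adjusted p = 0.957). Mki67, the proliferation marker, was at 10.1 to 11.3 and at 10.7 and 9.68 (-0.05, limma adjusted p = 0.856). Dek, the chromatin protein named in the title of the series, was at 125, 133 and 127 in DMSO and at 102 and 112 in Gem, lower without overlap and not called (-0.26 ± 0.08, SE, limma adjusted p = 0.162).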

How the data were processed

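Gene FPKM values of the 5 libraries were used as deposited by the authors. Build mm10 and the tools Cufflinks 2.1.1, Bowtie 0.12.9, DESeq2 and HTSeq appear in the submitters' processing notes without role or order, so the sources used here do not give which of them made the FPKM values. The hydroxyurea libraries of the series were not used. Genes were kept where 2 or more libraries had FPKM of 5 or more, and a trimmed mean of log ratios (trims of 30% of ratios and 5% of levels) scaled the libraries. Differences were tested on log2(scaled FPKM + 1) with limma 3.58.1 (R 4.3.3, two-sided, variance trend on the mean, residual degrees of freedom 3), adjusted by Benjamini-Hochberg over 8886 genes and called at 0.05. Fold changes on this scale understate the change of low genes. With 3 libraries against 2, single values were not given a permutation test. The scripts were tested on simulated data.

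The genes named are the 14 largest called rises and 14 largest called falls without overlap (predicted genes, pseudogenes and small RNA genes left out), the drug's main handling and target genes with Dek, Cdkn1a, Mdm2 and Mki67, and up to 3 members of each list by smallest p, with others where the text says so. A few genes that the rule names are not reported here. The members, the 40 lists and the rule were chosen with earlier results of these data known. Lengths are GENCODE M21 exonic lengths, and the correction is a loess fit (span 0.3) on length and level over the 8698 genes (97.9%) with a length. Alternatives covered scaling, pseudocount, minimum level, trend, library weights, length, the replicate number as a block and leaving out each library. Python 3.11.15 and matplotlib 3.10.9 drew the figures.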

Additional observations from a re-analysis of the deposited data

How the results depend on the processing

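Of the 36 called genes named in the text, Jun and Fos were called in all fits that left out 1 library. Without DMSO 1 31 of the 36 were not called, without DMSO 2 18, without DMSO 3 0 and without Gem 1 or Gem 2 29, and 5 could then not be fitted because they missed the minimum. Fits left with 1 Gem library assume that it varies like the DMSO libraries. Leaving out 1 library gave 2 to 362 calls (2 to 117 higher, 0 to 245 lower) and 3961 to 5432 genes without overlap (1981 to 2778 higher, 1980 to 2654 lower), since fewer libraries overlap less.

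Calls past the threshold numbered 63 by median-of-ratios scaling, 52 and 73 with pseudocounts of 0.1 and 5 and 42 with the length and level correction (12 lower). As deposited there were 3744 (63 higher, 3681 lower), with equal sums 446 (396 lower), by quantile normalization 19 (13 higher, 6 lower), with no filter 3 (3 higher, 0 lower), at FPKM of at least 1 in 2 libraries 104 (71 higher), at a mean FPKM of at least 20 111 (64 lower), with no trend 24 (22 higher, 2 lower) and with library weights 371 (139 higher, 232 lower). Genes without overlap numbered 6154 as deposited (153 higher, 6001 lower) and 12191 with no filter (7757 higher, 4434 lower). With equal sums 633 were higher and 3361 lower, and at a mean of at least 20 there were 1944 (974 higher, 970 lower). The causes of these changes were not tested.

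The replicate number as a block gave 354 calls (111 higher, 243 lower), in a fit where DMSO 3, which has no partner, has a term of its own. The deviations of samples with the same number correlated at 0.053 and 0.071. With 2 Gem libraries these values have the opposite sign for crossed numbers, so they do not settle whether a number marks a shared batch, and the labels do not say.

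Some log2 fold changes near 0 turned sign. As deposited, Ccng1 was at -0.065, Cd34 at -0.046, Ctsa at -0.016, Grn at -0.0070, Hexa at -0.14, Ikbkg at -0.10, Mdm2 at -0.31, Rrm2 at -0.32, Samhd1 at -0.13, Klf10 at -0.080, Zfp36l2 at -0.14 and mt-Nd4 at -0.22. With equal sums Mdm2 was at -0.12, Rrm2 at -0.12 and mt-Nd4 at -0.017, and with no filter they were at -0.13, -0.14 and -0.031. At FPKM of at least 1 Mdm2 was at -0.0089 and Rrm2 at -0.015, and with the length correction Mdm2 was at -0.0020. Leaving out 1 library put Mdm2 at -0.068 to 0.10, Rrm2 at -0.16 to 0.13, Mki67 at -0.11 to 0.018 and Kit at up to 0.011.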

Other observations

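The genes named here were picked after their values were seen, among those without overlap that were not called. Prg2, the major basic protein of eosinophil granules, was at 735, 1140 and 651 scaled FPKM in DMSO and at 1725 and 1572 in Gem (log2 fold change 1.01, limma adjusted p = 0.0991). Rigi, a sensor of viral RNA, was at 3.82, 5.57 and 4.55 and at 12.2 and 9.30 (1.06, limma adjusted p = 0.0718). Polr1f, a subunit of RNA polymerase I, was at 13.2, 21.1 and 12.6 and at 32.6 and 35.7 (1.11, limma adjusted p = 0.0751), while the listed genes of ribosome assembly were lower or overlapped.

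Lower without overlap were Pim1, a kinase induced by cytokines, at 31.4, 46.9 and 15.2 and at 13.5 and 10.7 (-1.17, limma adjusted p = 0.211), and Endog, a mitochondrial nuclease, at 11.7, 8.46 and 9.97 and at 4.43 and 4.48 (-1.01, limma adjusted p = 0.0599). Globin RNA was low in all libraries. Hba-a2, an alpha globin gene, was at 7.81, 14.8 and 10.2 in DMSO and at 3.30 and 3.45 in Gem (-1.41, limma adjusted p = 0.0688), and 3 of 7 erythroid markers tested were lower and 0 higher without overlap (5 and 1 without DMSO 3). Esam, an adhesion molecule of stem cells, was at 6.39 to 8.50 and at 3.81 and 3.95 (-0.80, limma adjusted p = 0.0929), and Cd34 at 109 to 116 and at 139 and 136 (0.29, limma adjusted p = 0.115). Endog, Hba-a2 and Esam met the minimum only through DMSO, which favoured a difference in their tests. All 10 mast cell and basophil genes tested overlapped between the groups, but without DMSO 3, the DMSO library with the lowest sum, 9 were lower and 0 higher.

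Other listed pathways had members in both directions, with 0 called. The shares without overlap over all genes were 18.7% higher and 19% lower, and 28.4% and 27.9% without DMSO 3. Of 35 targets of NRF2 and antioxidant enzymes 6 were higher and 8 lower (14 and 8 without DMSO 3), and of 38 genes of the integrated stress and unfolded protein responses 6 and 12 (9 and 16). Of 37 cytosolic heat shock chaperones the counts were 5 and 12 (10 and 13), of 23 glycolysis genes 6 and 3 (10 and 4) and of 28 cholesterol genes 1 and 8 (6 and 8). Of 46 mitotic genes 2 were higher and 12 lower (7 and 19 without DMSO 3). Without Gem 1, 26 were lower, and so were 2654 of all 8803 genes tested.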
